A study of Homo sapiens with 2 samples.

Results

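The genes described here are 33 genes of the absorptive intestinal cell, chosen by name with earlier results of these data known. They encode digestive enzymes of the brush border, proteins of lipid handling, sugar and peptide transporters and carbonic anhydrases. The others encode structural proteins of the microvillus, the complex that links microvilli to each other, the guanylin peptides and the immunoglobulin receptor PIGR. All 33 were read on the arrays, out of 19775 genes with a probe set that names 1 gene. They were measured in HT-29, an established human colorectal adenocarcinoma line, in total RNA taken 72 h after the cells were transfected with a small interfering RNA, or siRNA. The baseline cells received an siRNA against firefly luciferase (siLuc), which human cells lack, and the other cells one against IFITM1 (siIFITM1), a membrane protein induced by interferon that hinders the entry of viruses. With 1 array for each siRNA there was no spread between replicates to hold a difference against, and no test is given. The siRNA sequences, the culture medium and the cell density are not given in the sources used here, and no untransfected sample or second cell line was analysed here.

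The brush border is the carpet of microvilli on the gut-facing surface of an enterocyte. Each microvillus has a core of actin filaments bundled by villin, espin and fimbrin, is tied to the membrane by ezrin and myosin motors, and is held to its neighbours by protocadherins at the tips. Its membrane carries the enzymes that finish digestion and the transporters that take up sugars and peptides. Behind it, fatty acid binding proteins and apolipoproteins pass absorbed fat into chylomicrons. HT-29 cells are known to keep an undifferentiated form in ordinary glucose medium and to build a brush border when glucose is withheld or after long confluence, so these genes are commonly read as signs of differentiation in this line.

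A probe set is a group of short probes that reads 1 transcript, and its MAS5 signal is a brightness on a linear scale with no unit. Probe sets differ in how well they bind, so signals were compared between the arrays and not between genes, except to place each gene in a class. A gene is called bright here if the geometric mean of its 2 signals was at or above the 75th percentile of all probe sets, a signal of 393. It is called dim if that mean was below the median of all probe sets, a signal of 57.4, and intermediate if between these. Intermediate and bright genes are said to pass the filter. Log2 ratios are siIFITM1 over siLuc, so values above 0 mean more signal with siIFITM1.

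The array of cells treated against IFITM1 had an IFITM1 signal of 237 against 640 on the siLuc array, a log2 ratio of -1.43. Its relatives IFITM2 (from 1177 to 481) and IFITM3 (from 1525 to 490) were lower as well. The identifiers of all 3 probe sets mark probes shared between transcripts, and how far they read these genes apart was not tested. Epithelial identity was clear: 7 of 10 colon epithelium markers, among them EPCAM and the keratins KRT8, KRT18 and KRT19, were bright, and their summed signal was 159349 with siLuc and 160435 with siIFITM1. The intestinal transcription factors CDX1 (35.6 and 37.9) and CDX2 (5.87 and 19.1) and the colon antigen GPA33 (57.8 and 38.0) were dim. Markers of enteroendocrine cells were dim in 7 of 7 cases, and none of the 6 leukocyte and 10 fibroblast and endothelium markers measured was bright, although none stood at 0. Of the fibroblast and endothelium markers, 4 passed the filter. Of these, 1 was higher, the fibroblast marker LUM, which went from 132 to 386 (1.54). The other 3 were lower, COL1A1 (-0.49), DCN (-0.51) and PECAM1 (-0.24), beside 52.6% of all genes past the filter. The part of these markers in the values below was not tested. RNA was taken from whole cultures, in which fewer cells of a type and less RNA per cell cannot be told apart.

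Of the 6 structural genes of the microvillus 4 were present at high signal, while most genes of digestion and absorption were not. Of the 33 genes, 7 were bright, 11 were intermediate and 15 were dim. The bright share was 21.2%, against 39.4% of all genes, and the dim share was 45.5%, against 38.2%. The bright genes were VIL1, PLS1, EPS8 and EZR of the microvillus, USH1C of the tip complex, the peptidase gene DPP4 and the carbonic anhydrase gene CA12. All 6 genes of lipid handling and 4 of the 6 digestive enzyme genes were dim. The gene nearest the 75th percentile from above was USH1C, with a mean signal of 1241, and the nearest from below was CDHR5, with 202, so no gene stood close to the line.

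**Figure D1:**
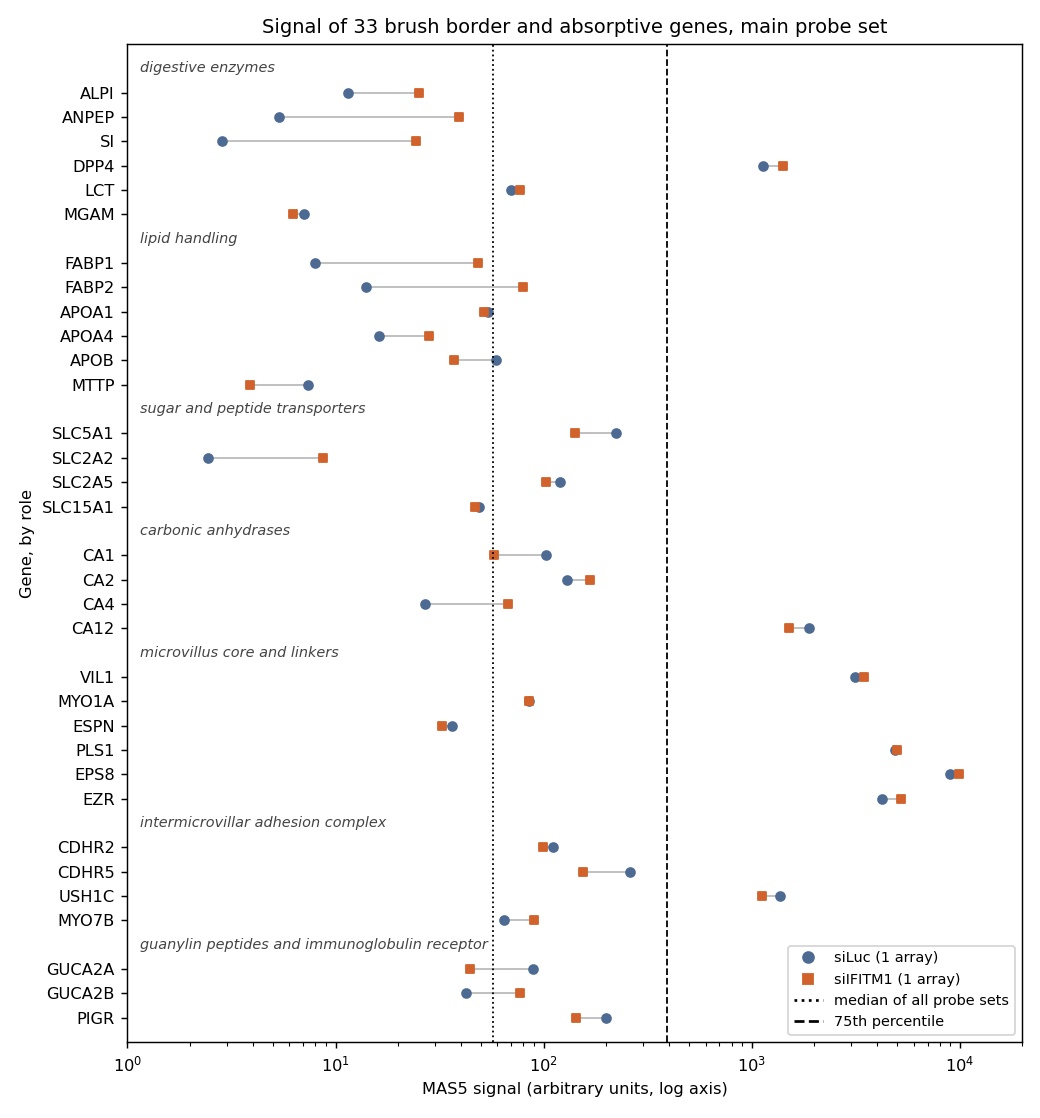
MAS5 signal of the main probe set of each of the 33 genes on a log axis, grouped by role, with siLuc as circles and siIFITM1 as squares (1 array each). The dotted line is the median of all probe sets (57.4) and the dashed line the 75th percentile (393); 7 genes lie to the right of the dashed line on both arrays, and the 6 lipid handling genes have mean signals left of the dotted line.

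The promoters of 4 genes are shown so that the bright DPP4 and EZR can be set beside the dim SI and FABP1. DPP4 and EZR have the most CG dinucleotides among the bright genes of the list and SI the fewest among the dim ones, so the lines show the range and do not stand for the list. Each line is the 250 bases before the start, taken from RefSeq on GRCh38.p14 and written in the direction of the gene. Capitals mark every CG dinucleotide, every GTTAAT, the core of the sequence bound by the intestinal and hepatic factor HNF1, and every TATAAA, the TATA box, the last 2 searched on both strands. DPP4 lies on the minus strand at chr2:162074216-162074465, EZR on the minus strand at chr6:158818236-158818485, SI on the minus strand at chr3:165078497-165078746 and FABP1 on the minus strand at chr2:88128063-88128312.
DPP4: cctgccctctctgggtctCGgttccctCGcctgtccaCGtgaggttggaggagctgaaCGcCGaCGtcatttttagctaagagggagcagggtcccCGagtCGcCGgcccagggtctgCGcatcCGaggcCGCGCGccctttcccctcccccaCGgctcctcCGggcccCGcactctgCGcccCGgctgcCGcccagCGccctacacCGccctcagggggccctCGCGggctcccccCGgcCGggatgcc
EZR: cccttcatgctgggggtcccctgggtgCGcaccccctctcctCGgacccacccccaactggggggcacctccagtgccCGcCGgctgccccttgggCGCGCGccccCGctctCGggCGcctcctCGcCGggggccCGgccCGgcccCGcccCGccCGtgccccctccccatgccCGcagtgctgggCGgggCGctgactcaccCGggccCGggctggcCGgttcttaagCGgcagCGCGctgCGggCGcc
SI: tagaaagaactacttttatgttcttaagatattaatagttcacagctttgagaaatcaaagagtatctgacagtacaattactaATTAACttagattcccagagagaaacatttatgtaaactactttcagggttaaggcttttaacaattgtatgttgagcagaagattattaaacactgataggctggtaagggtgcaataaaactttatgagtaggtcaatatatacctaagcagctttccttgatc
FABP1: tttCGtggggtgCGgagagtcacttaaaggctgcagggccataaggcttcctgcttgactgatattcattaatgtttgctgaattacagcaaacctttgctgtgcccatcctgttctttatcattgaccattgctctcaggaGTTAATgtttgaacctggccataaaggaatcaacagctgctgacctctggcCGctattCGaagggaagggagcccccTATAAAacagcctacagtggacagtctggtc

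The DPP4 window held 26 CG dinucleotides and the EZR window 28, and neither held GTTAAT or TATAAA. The SI window held 0 CG and 1 GTTAAT, and the FABP1 window held 4 CG, 1 GTTAAT and 1 TATAAA that begins 31 bases before the start. RefSeq promoters were matched for 23 of the 33 genes. The 5 bright genes among them had a median of 13 CG, from 5 (PLS1, the mean over 3 starts) to 28, below the median of 21 for all bright genes. The 7 intermediate genes had a median of 4.5 against 17 for all intermediate genes, and the 11 dim genes 4 against 8. SLC15A1 was dim with 26 CG, as many as DPP4. In each class, then, the median of the listed genes was below that of all genes of the class.

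**Figure D2:**
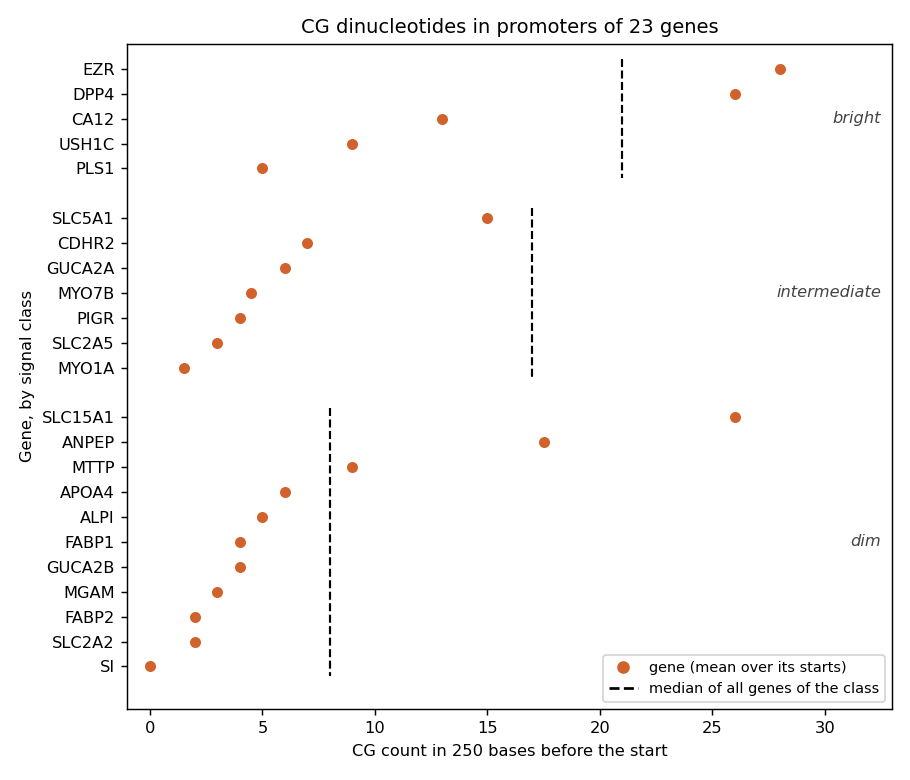
CG dinucleotides in the 250 bases before the start for the 23 genes with a RefSeq promoter, as the mean over a gene's starts, in 3 blocks by signal class. The dashed line in each block is the median of all genes of that class (21, 17 and 8); EZR and DPP4 lie above it among bright genes, and all 7 intermediate genes lie below it.

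GTTAAT was found at a start of 7 of the 23 genes (30.4%): SI, MGAM, ANPEP, FABP1, SLC5A1, CDHR2 and GUCA2B. It was found in 6.38% of all 15384 genes with a promoter and in 6.23% of all 35116 promoters. None of the 5 bright genes held it, and only 4.75% of all bright genes did, so no contrast between classes can be read from this. TATAAA was found in 5 of the 23 (21.7%), against 10.9% of all genes and 10.7% of all promoters. The listed genes had a median GC content of 58.4% against 62.3%, and the part of base composition in these shares was not tested. A match is a description of the letters and not a measured binding site.

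Of the microvillus genes, EZR alone had a main ratio above the measure of error used here. Of all bright genes, 39.3% lay beyond it either way. VIL1 encodes villin, which bundles and severs actin, and its signal was 3123 with siLuc and 3470 with siIFITM1 (log2 ratio 0.15, and -0.01 over the mean of its probe sets). PLS1, the intestinal fimbrin that also bundles actin, was read at 4898 and 4997 (0.03). EPS8, which caps and bundles actin at the microvillus tip, was read at 9007 and 9951 (0.14). All 3 ratios were smaller than 0.193, the same-gene SD of bright probe sets, that is, the SD with which log2 ratios differed when several probe sets read 1 gene. It is used here as the measure of error and holds no variation between cultures. EZR encodes ezrin, the linker between actin and the membrane, and went from 4230 to 5216 (0.30), above that SD. Of its 5 probe sets, 4 were higher, between 0.29 and 0.69, and the other was at -0.12. For VIL1, 3 of 4 probe sets were higher and the other, whose identifier marks probes shared between transcripts, was at -0.39. MYO1A, the brush border myosin that tethers the core to the membrane, was intermediate at 85.4 and 84.7 (-0.01, and 0.08 after quantile normalization). ESPN, the bundling protein espin, was dim at 36.4 and 32.4.

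In the complex that joins microvilli at their tips, USH1C and CDHR5 had less signal with siIFITM1 by more than the same-gene SD. CDHR2, and MYO7B on its main probe set, differed by less than it. USH1C encodes harmonin, the scaffold of the complex, and went from 1369 to 1126 (-0.28). Its other 2 probe sets were at -0.43 and -0.89, so all 3 were lower. CDHR5 and CDHR2 are the protocadherins that meet between neighbouring microvilli. CDHR5 went from 261 to 155 (-0.75). Its other probe sets were dim, with 58.6 and 3.90 on the one and 12.7 and 12.4 on the other, so the size of its difference rests on the main probe set. CDHR2 went from 111 to 99.2 (-0.16). MYO7B, the motor of the complex, went the other way, from 64.5 to 89.7 (0.48). A second probe set of it past the filter went from 25.5, below the floor, to 158 (2.63), beyond the SD. Of the known partners outside the list, CALML4, a light chain of that motor, was bright and went from 6733 to 4811 (-0.48), and ANKS4B, a scaffold, was at -0.14. Of these 6 genes, 5 were below 0, beside 52.6% of all genes past the filter. USH1C and CALML4 were below 0 by more than the same-gene SD of bright probe sets, as 39.3% of all bright genes differed either way. CDHR5 passed the SD of 0.496 for intermediate probe sets, as 32.4% of all intermediate genes did either way, while CDHR2, ANKS4B and the main probe set of MYO7B did not.

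Among the digestive enzymes, DPP4 alone was bright. It encodes dipeptidyl peptidase 4, which cuts dipeptides from peptides and hormones, and its signal went from 1133 to 1416 (0.32). Its other 2 probe sets went from 611 to 793 (0.37) and from 486 to 599 (0.30). All 3 were higher by similar amounts, above the same-gene SD. LCT, the lactase gene, was intermediate at 70.0 and 77.3 (0.14). The intestinal alkaline phosphatase gene ALPI had signals of 11.4 with siLuc and 25.1 with siIFITM1. ANPEP, aminopeptidase N, had 5.37 and 39.3, SI, sucrase-isomaltase, 2.83 and 24.2, and MGAM, maltase-glucoamylase, 7.07 and 6.24. All 8 of these dim values lay below the median of all probe sets. The related hydrolases showed the same low level, with 0 of 15 bright and 11 dim (73.3%), beside 39.4% and 38.2% of all genes.

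Lipid handling genes were dim throughout. The fatty acid binding protein genes FABP1 and FABP2 had signals of 7.97 and 14.0 with siLuc and 48.6 and 79.3 with siIFITM1. FABP2 was thus above the filter floor on the siIFITM1 array alone. The apolipoprotein genes APOA1 (54.2 and 51.9), APOA4 (16.2 and 28.1) and APOB (59.3 and 36.9) and MTTP (7.39 and 3.89), which loads lipid onto APOB, were low on both arrays or close to the floor. APOA1 and APOB are also genes of hepatocytes, and of 8 hepatocyte markers SERPINA1 alone was bright (from 6995 to 4762). Of genes that act in fat uptake outside the list, 7 of 18 (38.9%) were bright, near the 39.4% of all genes. The median ratio of these bright genes was -0.00207. They included ACSL5 (4180 and 4174), which activates fatty acids, and the triglyceride synthesis genes DGAT1 (1078 and 1021) and DGAT2 (537 and 511).

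The transporters were intermediate or dim. SLC5A1, the sodium-driven glucose transporter, went from 222 to 141 (-0.65). Its second probe set went from 180 to 152 (-0.24), in the same direction but within the same-gene SD. SLC2A5, the fructose transporter, was at 120 and 103 (-0.22), with a second probe set at 72.1 and 103 (0.52), so its direction was not settled. SLC2A2, the basolateral sugar transporter, was dim at 2.45 and 8.70, and SLC15A1, the peptide transporter, at 48.8 and 46.6. In the related transporters 6 of 25 (24%) were bright, beside 39.4% of all genes. By main probe set, 5 of these 6 were above 0, beside 50.5% of all bright genes. On a second probe set past the filter, SLC1A1 (-0.49) and SLC40A1 (-0.34) were below 0. All 4 probe sets of SLC11A2 past the filter were above 0, the main one at 0.03.

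The carbonic anhydrases, which interconvert carbon dioxide and bicarbonate, were split. CA12, a membrane-bound form known from colon tumours, was bright and went from 1876 to 1518 (-0.30). All 5 of its probe sets past the filter were lower, from -0.55 to -0.05, and the 2 dim ones were lower as well. CA2, the abundant cytosolic form, was intermediate and went from 130 to 168 (0.37). CA1, a marker of mature colonocytes, went from 103 to 57.9 (-0.83). Its second, dim probe set went from 7.41 to 36.4, so the probe sets did not share a direction. CA4, a surface-anchored form, was dim at 27.1 and 67.8. CA13, a related cytosolic form, was bright and nearly equal at 1005 and 1046.

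GUCA2A and GUCA2B encode guanylin and uroguanylin, peptides that drive chloride and water secretion through the receptor GUCY2C. GUCA2A went from 88.7 to 44.2, 2.01-fold lower. The siIFITM1 signal was under the floor of 57.4, and the log2 ratio was -0.63 with that signal raised to the floor. It was also short of 2-fold after quantile normalization (-0.92). GUCA2B was dim and went from 42.4 to 77.0, the opposite direction. GUCY2C was dim at 11.5 and 48.6. PIGR, which carries IgA across the epithelium, went from 199 to 143 (-0.48), inside the same-gene SD of 0.496.

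Across the list, 5 of the 7 bright genes were above 0, with a median log2 ratio of 0.14 and a range from -0.30 to 0.32. Of all 7793 bright genes 50.5% were above 0, with a median of 0.0031. Of the 11 intermediate genes 8 were below 0, with a median of -0.22. Of all 4432 intermediate genes 58.1% were below 0, with a median of -0.09. None of the 7 bright genes was 2-fold apart, where 0.269% of all bright genes were. Past the filter, 1 of 18 genes was at the 2-fold line, GUCA2A, and 3.03% of all genes past the filter were. At 1.5-fold, 4 of the 11 intermediate genes were lower (GUCA2A, CA1, CDHR5 and SLC5A1), beside 17.1% of all intermediate genes, and 0 were higher, beside 8.26%. All 7 bright genes lay between the 5th and 95th percentile of bright genes (-0.42 to 0.42), and all 11 intermediate genes lay inside the corresponding range (-1.02 to 0.74). Of the 15 dim genes, 13 lay inside the range of dim genes (-2.82 to 2.64), and ANPEP and SI lay above it. Goblet cell markers past the filter, measured on the same arrays, were below 0 in 5 of 5 cases, beside 52.6% of all genes past the filter. SPDEF (-0.76), TFF3 (-0.63) and MUC2 (-0.86) were so by more than the same-gene SD of their class. AGR2 (-0.12) and SPINK4 (-0.19) were within it. Of all genes, 39.3% of bright and 32.4% of intermediate ones were beyond it either way. The summed signal of the 8 markers was 35108 with siLuc and 31163 with siIFITM1, most of it from AGR2 (30973 and 28545), with none at 0. Their part in the ratios above was not tested.

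**Figure D3:**
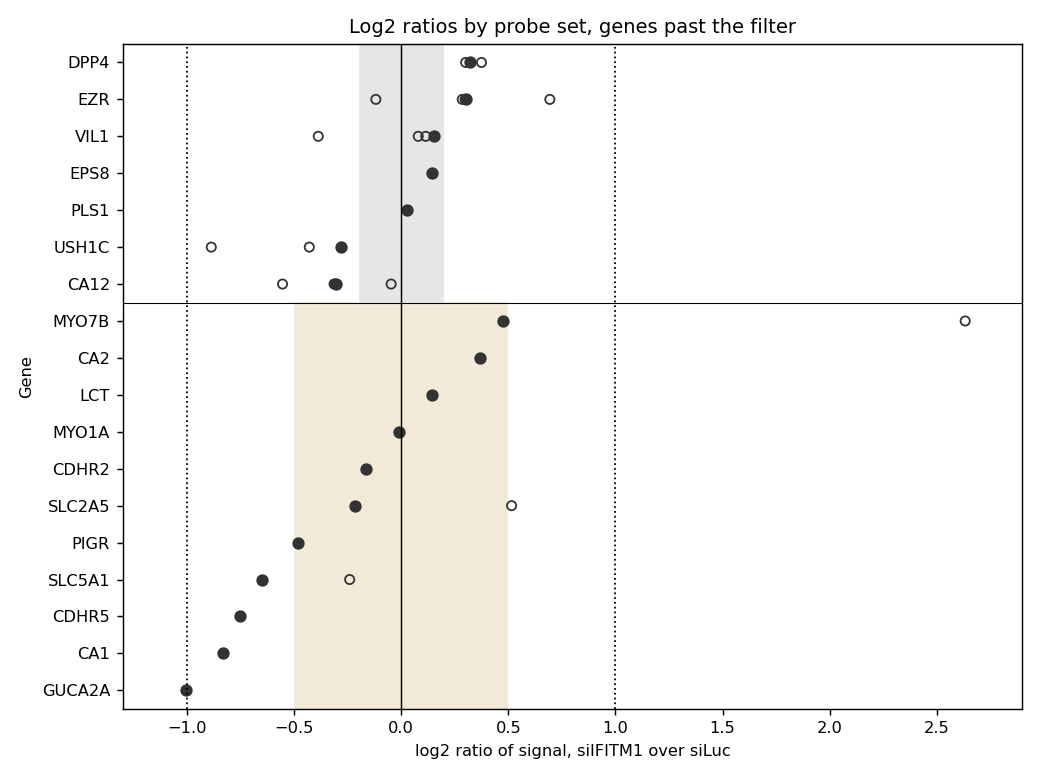
Log2 ratio of siIFITM1 over siLuc for every probe set past the filter of the 18 genes that passed, with the main probe set filled and the others open, and bright genes above the horizontal line. The shaded bands are plus and minus 1 same-gene SD (0.193 and 0.496) and the dotted lines mark 2-fold; DPP4 lies to the right of 0, and USH1C and CA12 to the left, at every probe set.

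The direction was also compared between the probe sets of each bright gene. Of the 5 bright genes with several probe sets past the filter, 3 had all of them in 1 direction, DPP4 higher and USH1C and CA12 lower. The share among all such bright genes was 48.8%. Together with EZR, these were the 4 of 7 bright genes whose main ratio exceeded the same-gene SD, beside 39.3% of all bright genes. They were opposite in sign, 2 and 2.

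The dim genes differed widely between the arrays, at signals where the same-gene SD was 1.66. Of the 15 dim genes, 11 were below the floor on both arrays. At least 2-fold more signal with siIFITM1 was read for 7 of the 15 (ALPI, ANPEP, SI, FABP1, FABP2, SLC2A2 and CA4) and at least 2-fold less for 0. Among all 7550 dim genes these shares were 21.9% and 25.5%. Both counts use the main probe set of each gene, and the rise was not shared by every probe set. On a second probe set, FABP1 had a log2 ratio of -0.48, CA4 of -0.10 and ALPI of 0.21. Of the other probe sets of ANPEP, 1 was at -0.47 and 1 was at least 2-fold higher. SI, FABP2 and SLC2A2 had 1 probe set each. Over all 35 dim probe sets of the listed genes, 11 were 2-fold higher and 5 were 2-fold lower, against 22.4% and 25.9% of all dim probe sets. The 5 lower ones belonged to APOA1, APOB, SLC2A5, CA12 and CDHR5. Detection calls were not used here, so which of these signals exceeded background is not known.

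Another 110 genes of the absorptive cell were set down by role for comparison, also with earlier results of these data known. Of these, 105 were measured, with 31 bright (29.5%), 27 intermediate and 47 dim (44.8%). Of all genes, 39.4% were bright and 38.2% dim. The bright related genes were above 0 in 20 of 31 cases, with a median of 0.03. Of all bright genes 50.5% were above 0, with a median of 0.0031. The highest were ABCG2, an efflux pump of the apical membrane (from 829 to 1604, 0.95), STX3, a syntaxin of apical delivery (0.47), the myosin gene MYO6 (0.42) and the lipid droplet coat gene PLIN3 (0.36). The lowest were CALML4 (-0.48), the chloride channel gene CFTR (-0.38), the zinc transporter gene SLC39A4 (-0.23) and the galectin gene LGALS4 (-0.17). Of the 3 STX3 probe sets past the filter, 2 were higher and 1 went from 158 to 83.4 (-0.92). As in the list itself, structure was better represented than digestion. Of related genes, 13 of 21 of brush border structure (61.9%) and 0 of 15 hydrolases were bright, beside 39.4% of all genes. Among the structural ones, the ezrin relatives MSN (0.16) and RDX (0.03), the EPS8 relatives EPS8L1 (0.05), EPS8L2 (0.10) and EPS8L3 (0.21) and the ezrin partner NHERF1 (-0.15) were bright. By main probe set, EPS8L3 alone of these was beyond the same-gene SD. On other probe sets past the filter, EPS8L2 was at -0.50 and -0.21, RDX at -0.0011 and -0.45, and EPS8L1 between -0.06 and 0.37. None of the 31 was 2-fold apart, where 0.269% of all bright genes were. Past the filter, 1 of 58 related genes reached the line, beside 3.03% of all genes past the filter. It was SLC4A4, a bicarbonate transporter, from 40.5 (below the floor) to 130. Its 4 other probe sets, all dim, were lower with siIFITM1.

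**Figure D4:**
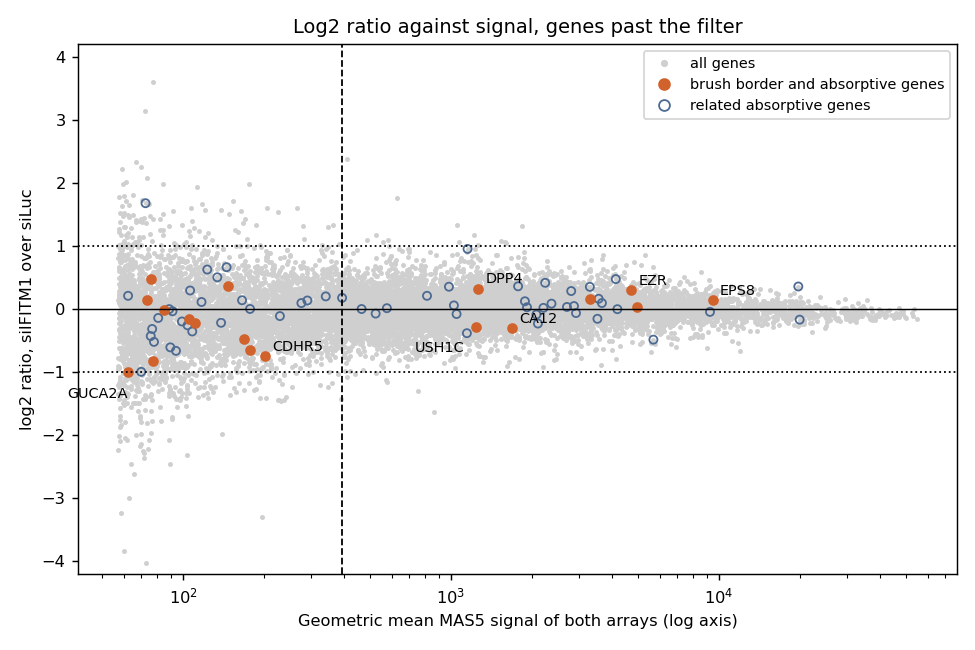
Log2 ratio of siIFITM1 over siLuc against the geometric mean signal of both arrays (log axis) for the 12225 genes past the filter (grey), the 18 listed genes (filled) and 58 related genes (open). The dashed line is the 75th percentile of signal (393) and the dotted lines mark 2-fold; the spread narrows as signal grows, and GUCA2A at the left edge is the listed gene on the 2-fold line.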

How the data were processed

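Total RNA of HT-29 cells was column purified, amplified to biotin-labelled cRNA and read on 1 single-colour array per siRNA, per the labels' protocols. The deposited values are intensities, MAS5 signals per probe set on a linear scale, per the submitters' processing notes (their version is not stated there). Without 2% of probe sets at each end the mean signal was 500.1 on both arrays, which shows a common scaling, and none was added. Median signals were 63.9 (siLuc) and 59.7 (siIFITM1), and GAPDH, a check of RNA integrity, had log2 ratios of 3' over 5' signal of -0.13 and -0.11. Precision is limited by the number of arrays.

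Of 54613 probe sets that are not controls, 41091 named 1 gene, 1801 several and 11721 none. Symbols were updated through Entrez identifiers in a RefSeq table of GRCh38.p14 (41037 matched). The probe set of highest mean log2 signal represented a gene. The lists and members were chosen with earlier results of these data known. All 33 members are named. Related genes are named for the 4 highest and 4 lowest ratios among bright ones, or as partners or paralogues of a member. Others are named, after their values were seen, where a count of 5 or fewer, a level or another probe set called for it. These are SLC4A4, LUM, COL1A1, DCN, PECAM1, ACSL5, DGAT1, DGAT2, GUCY2C, SLC1A1, SLC40A1 and SLC11A2. CEACAM7 and KRT20 were named outside this rule. Marker genes were named as examples. The calculation was tested on simulated arrays. Python 3.11.15, numpy 2.4.6, pandas 2.3.3 and statsmodels 0.14.6 were used.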

Additional observations from a re-analysis of the deposited data

How the results depend on the processing

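The median log2 ratio of the 18 listed genes past the filter, -0.09, changed sign to 0.14 without probe sets whose identifiers mark shared probes (14 genes) and to 0.029 with no filter (33 genes). The cause was not tested. The count of listed genes 2-fold apart, 1, was 0 after median centring, quantile normalization, subtraction of a loess trend (span 0.3), with a pseudocount of 32, with a filter at the 75th percentile and with low signals raised to the floor. It was 8 with no filter and 4 at a 1.5-fold line. The median of the bright listed genes stayed between 0.09 and 0.16, and that of bright related genes between 0.0044 and 0.051, under the alternatives run for each. The number of bright genes was 6 or 7. Of single genes, ANPEP, a dim gene, went to -0.47 without shared probes. Over the mean of their probe sets, CA12 was at -0.69, USH1C at -0.53, CDHR5 at -1.57, MYO7B at 1.64 and CA1, with its sign changed, at 0.73. Without shared probes, EZR was at 0.69, USH1C at -0.89, CDHR5 at -0.04 and, with signs changed, SLC2A5 at 0.52 and CA1 at 2.30. Leaving out an array was not possible with 1 per siRNA. No paired analysis was possible because there was 1 sample per group and the labels give no replicate numbers.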

Other observations

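A probe set that names both ESPN and the related sequence ESPNP entered no comparison, and its signal was 6.08 with siLuc and 17.6 with siIFITM1, below the filter floor on both arrays. Several dim probe sets differed more than the main probe set of the same gene. APOA1 was at 54.2 and 51.9 on its main probe set, and another went from 47.1 to 8.49. CDHR5 had a log2 ratio of -0.75 on its main probe set, while another went from 58.6 to 3.90 and the dimmest was at -0.04. The CEACAM7 adhesion gene of mature colonocytes went from 98.6 to 49.5, which is below the floor. Its log2 ratio was -0.78 with that signal raised to the floor. KRT20, a keratin of differentiated colonocytes, went from 17466 to 22374 (0.36). Of the 9 related colonocyte genes past the filter, 6 were above 0 and 3 below. Of all genes past the filter, 47.4% were above 0.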
